A study of Mus musculus with 28 samples.

Results

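The report follows 8 membrane transporters of the hepatocyte, the main cell type of the liver, in mice given an antiviral or a pair of enzyme inducers. They were taken by name, as the probes called Slc10a1, Slco1a1, Abcc3, Abcb11, Abcb4, Abcc2, Abcb1a and Abcb1b in the scanner files and the platform's gene table, and make up 8 of the 120 gene probes of a focused 2-colour array. All 8 names matched in both sources, and each probe had 3 spots. By membrane side, 3 members sit on the sinusoidal membrane, which faces the blood, and 5 on the canalicular membrane, which faces the bile.

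Bile acids circulate between liver and gut, and the hepatocyte drives that circuit by taking them up from blood at the sinusoidal membrane and pumping them into bile at the canalicular membrane. The solute carriers Slc10a1 and Slco1a1 are importers, and the ATP-binding cassette proteins named Abc are exporters that spend ATP. Efflux to blood through Abcc3 is a bypass route of the sinusoidal side, and drug-sensing nuclear receptors such as CAR and PXR, together with the bile acid receptor FXR, are known to control several of these genes.

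Liver RNA came from 14 treated female C57BL/6 mice of 8 to 10 weeks, and the labels ask about the expression of cytochrome P450 genes under acyclic nucleoside phosphonate antivirals. Adefovir dipivoxil was given to 5 animals and tenofovir disoproxil to 5, each at 25 mg/kg by intraperitoneal injection for 3 days. The positive control of 4 animals received phenobarbital at 60 mg/kg, an activator of CAR, with 1 dose of β-naphthoflavone at 80 mg/kg on day 2, a ligand of the aryl hydrocarbon receptor. Animals were killed on day 4, with 24 hours between the last injection and sampling. Every array set treated RNA against the same saline pool, made of 10 animals given 200 µl saline by the sample labels and of 5 by the protocol. Antiviral animals had 2 arrays each with the dyes exchanged, and positive-control animals had 1 array each, on which Cy3 marked their RNA and Cy5 the saline pool. Another 4 arrays carried 1 RNA pool of the 4 positive-control animals, 2 in each dye orientation, and enter no test.

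Positive-control results carry a limit of signal. The scanner files mark the Cy5 channel of the 4 single-animal positive-control arrays as bad, and that channel holds the saline RNA. On these arrays 9 to 29 of 120 probes were above local background in the saline channel and 63 to 84 in the treated channel. The pool arrays had 33 to 53 probes above background in the saline channel and 30 to 55 in the treated channel, and the antiviral arrays 38 to 78 and 30 to 88. Of 8 hepatocyte markers 6 were on the array and 5 of these were above background on most of the 24 animal arrays, among them Apoa1 and Cyp2e1, both above background on all 24 in each channel. The bile duct list had 1 of 6 markers on the array, Slc10a2, and the lists of 4 Kupffer cell, 4 stellate cell and 4 endothelial markers had 0, so the part of other cell types in a result was not tested. Whole liver was measured, so fewer cells of a type and less RNA per cell cannot be told apart.

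Basal expression of the transporters was read from the saline channel, as the mean of 3 spots minus local background. Slc10a1, the sodium-dependent bile acid importer also called Ntcp, was above background in saline on 20 of 20 antiviral arrays, with 1237 to 3997 intensity units in Cy3 and a median of 2255. The exporter Abcb11, the bile salt export pump Bsep, was likewise above background on 20 of 20, at 1011 to 2894 units in Cy3 with a median of 1629. With saline in Cy5 both read lower at the median, 579 units for each, with a range of 211.7 to 3678 for Slc10a1 and 179.7 to 2950 for Abcb11. The main importer and the main exporter of bile acids were thus measured in saline on every antiviral array.

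The other exporters were dimmer in saline. Abcc3 was above background on 19 of 20 antiviral arrays, Abcb1a on 18, Abcc2 on 17 and Abcb4 on 13. For Abcb4 the dye mattered, with 10 of 10 arrays above background when saline was in Cy3 and 3 of 10 when it was in Cy5. Slco1a1, an organic anion importer also called Oatp1a1, was above background in saline on 1 of 20 arrays, and Abcb1b on 0 of 20. Saline levels of the 8 transporters, all measures of the same RNA, varied between the 20 arrays with an SD of 0.11 to 0.17 on the normalized log2 scale. Average intensities had first been brought to the same distribution on every array, so this SD does not measure the spread before scaling. The lowest SD, 0.11, was that of Abcb1b, below background in saline. In at least 1 channel, 6 of the 8 transporters were above background on most animal arrays, all but Slco1a1 and Abcb1b, beside 70 of 120 probes.

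**Figure D1:**
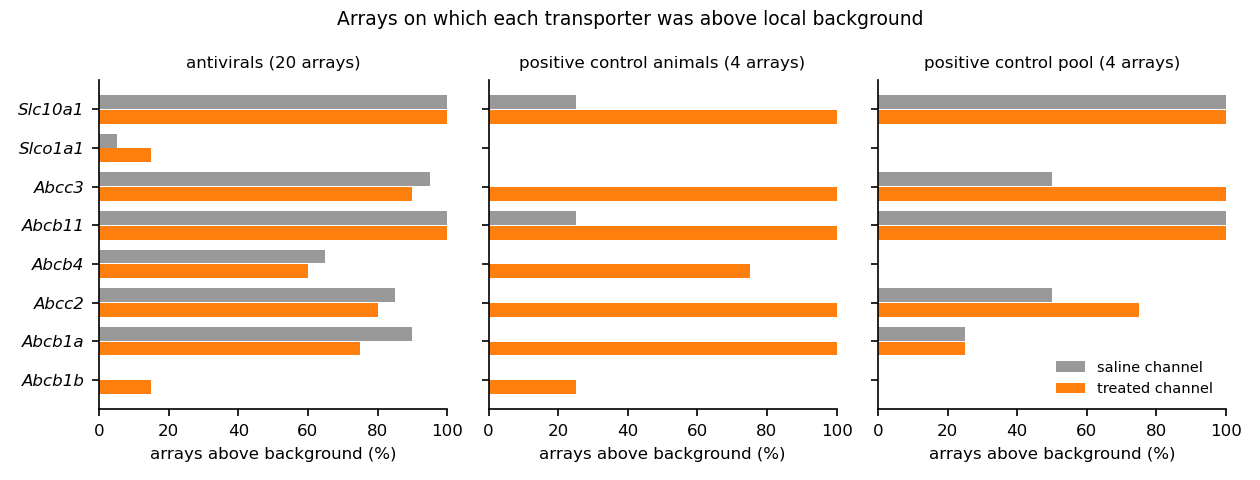
Share of arrays, in percent, on which each transporter was above local background in the saline channel (grey) and the treated channel (orange), for 20 antiviral arrays, 4 single-animal positive-control arrays and 4 positive-control pool arrays. Slc10a1 and Abcb11 were above background in saline on all antiviral and pool arrays but on 1 of 4 single-animal positive-control arrays, and Slco1a1 was above background in neither channel of any positive-control array.

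The promoters of the main importer and the main exporter are shown as background. Whether their motifs bear on the measured ratios was not tested. Sequences are the RefSeq windows of build GRCm38.p6 from 250 bases before to 50 after an annotated start, written 5′ to 3′ on the gene's strand. Capitals mark AGGTCA, the hexamer recognised by many nuclear receptors, and GCGTG, the core recognised by the aryl hydrocarbon receptor, on either strand. Slc10a1, at chr12:80968030-80968329 on the minus strand, is given for the second of its 2 annotated starts. Abcb11 lies at chr2:69342567-69342866 on the minus strand.
Slc10a1: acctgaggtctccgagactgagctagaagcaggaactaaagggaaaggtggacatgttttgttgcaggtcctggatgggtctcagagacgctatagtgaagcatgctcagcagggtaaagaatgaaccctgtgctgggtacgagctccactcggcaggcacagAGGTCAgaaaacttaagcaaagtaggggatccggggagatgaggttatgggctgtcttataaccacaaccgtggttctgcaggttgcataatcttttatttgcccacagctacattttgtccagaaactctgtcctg
Abcb11: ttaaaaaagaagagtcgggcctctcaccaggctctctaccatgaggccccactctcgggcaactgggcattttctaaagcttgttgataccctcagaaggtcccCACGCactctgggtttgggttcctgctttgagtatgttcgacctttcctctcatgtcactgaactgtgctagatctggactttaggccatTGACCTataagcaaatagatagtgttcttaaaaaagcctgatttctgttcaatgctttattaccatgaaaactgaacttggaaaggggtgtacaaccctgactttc
The window of the other annotated start of Slc10a1 holds neither motif. AGGTCA was found in 4 of the 8 windows of the 7 transporters with an entry, and in 16.3% of all 32851 windows. Those 4 belong to Slc10a1, Slco1a1, Abcb11 and Abcc2. GCGTG was found in 2 of the 8 (Abcb11 and Abcb4) and in 32.4% of all windows. Abcc3 has no entry.

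Adefovir dipivoxil, the ester prodrug of adefovir, was compared with saline to ask whether the drug moved transporter RNA. None of the 8 transporters passed limma's test at an adjusted p under 0.05, against 2 of 120 probes called (1.67%). Unadjusted, 3 of 8 had a limma p under 0.05, beside 15 of 120 probes. Their median log2 ratio was -0.01, beside -0.00 over all probes. The 95% intervals of all 8 lay within 0.5 log2 units of 0, as did those of 112 of 120 probes. Slco1a1 and Abcb1b were above background in saline on 1 and 0 of 10 adefovir arrays. Their narrow intervals therefore cannot show that a change was small. Across processing alternatives the mean ran from -0.66 to 0.12 for Slco1a1 and from 0.08 to 0.52 for Abcb4. Means of the other transporters stayed within 0.5 of 0.

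On the sinusoidal side, Slc10a1 had log2 ratios of -0.11, -0.21, -0.14, 0.04 and -0.23 in adefovir animals 1 to 5. Animals 1, 2, 3 and 5 were below saline and animal 4 was just above it. The mean was -0.13 (SD 0.108, n = 5), with a limma adjusted p of 0.391. Slco1a1 ranged from -0.27 to 0.22, on both sides of saline, around a mean of -0.03. Abcc3, which exports glucuronides and bile acids to blood, ranged from -0.15 to 0.25 with a mean of 0.08.

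Among the canalicular exporters, Abcb11 had the largest mean under adefovir. Its log2 ratios were -0.27, -0.05, -0.45, -0.25 and -0.14 in animals 1 to 5, so all 5 animals were below saline. The mean of -0.23 (SD 0.150, 95% interval -0.43 to -0.04) had a limma adjusted p of 0.391 and was not called. Abcb1a, one of the mouse P-glycoproteins that export drugs, was also below saline in 5 of 5 animals, from -0.46 to -0.08, with a mean of -0.21 and the same adjusted p of 0.391 in limma. Its partner P-glycoprotein Abcb1b had a mean of 0.01. Abcb4, which moves phosphatidylcholine into bile, had a mean of 0.17 and was above saline in 4 of 5 animals. Abcc2, which exports conjugated bilirubin and drug conjugates, had a mean of 0.11 and was above saline in 3 of 5.

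Tenofovir disoproxil, the ester prodrug of tenofovir, likewise gave 0 of 8 transporters past limma's threshold, against 2 of 120 probes called (1.67%). Unadjusted, 1 of 8 had a limma p under 0.05, beside 20 of 120 probes. The median log2 ratio of the 8 was 0.06, beside 0.02 over all probes. All 8 intervals again lay within 0.5 of 0, as did those of 105 of 120 probes. The same limit holds, since saline was above background on 0 of 10 tenofovir arrays for Slco1a1 and for Abcb1b. Across processing alternatives the mean ran from -0.19 to 0.77 for Abcb4 and from 0.01 to 0.67 for Abcb1b. Means of the other transporters stayed within 0.5 of 0. Slc10a1 had log2 ratios of -0.26, -0.14, -0.09, -0.13 and -0.20 in animals 1 to 5. All 5 were below saline, and the mean of -0.16 (SD 0.0677) had a limma adjusted p of 0.180. The same mean passed when all arrays were fitted and the animal was a random block, at a limma adjusted p of 0.0472.

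Abcb11 spread widely among tenofovir animals, at 0.51, 0.04, 0.14, -0.14 and -0.23. Animal 1 was above saline and animals 4 and 5 below it, around a mean of 0.06 (SD 0.289). Abcb4 ranged from -0.19 to 0.49 with a mean of 0.05, and Abcb1a from -0.20 to 0.21 with a mean of -0.02. The Abcc2 mean was 0.15 and that of Abcb1b 0.12, the latter above saline in 5 of 5 animals although its saline channel was below background on all 10 tenofovir arrays. Abcc3 had 0.13, -0.15, 0.08, 0.17 and 0.11 in animals 1 to 5, for a mean of 0.07, and Slco1a1 a mean of 0.01.

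**Figure D2:**
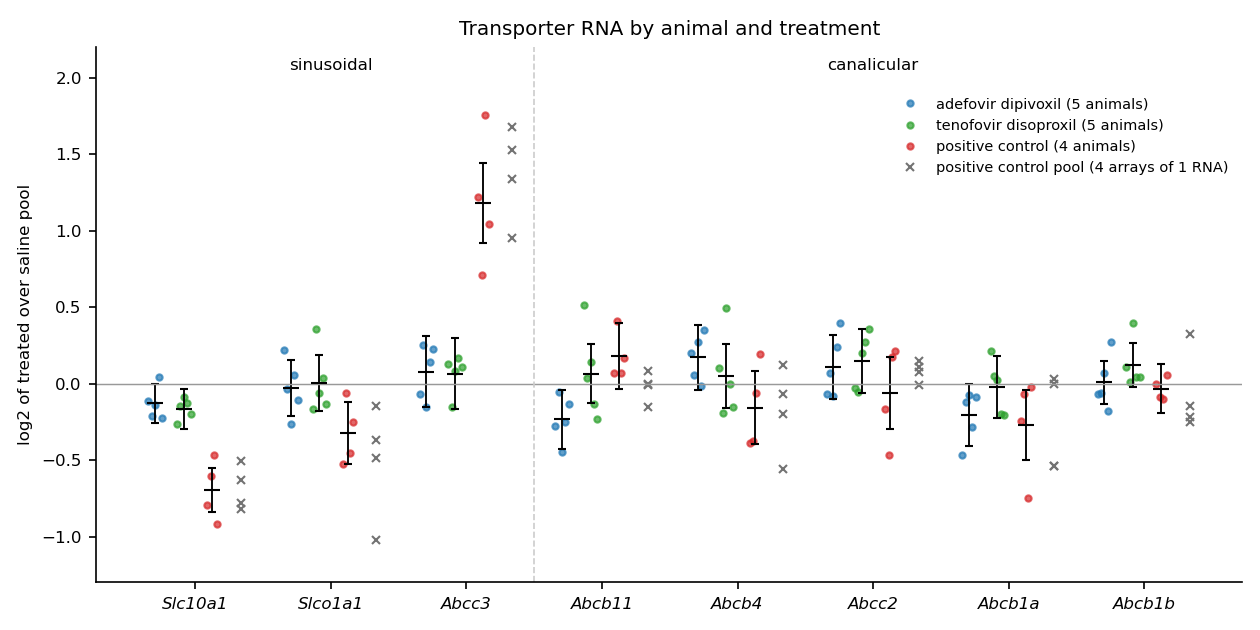
Log2 ratio of treated liver RNA over the saline pool for each transporter, with 1 point per animal; black bars are group means with 95% intervals from limma, and crosses are the 4 pool arrays of 1 RNA. Adefovir and tenofovir animals lie between -0.46 and 0.51, with Slc10a1 below 0 in 9 of 10, whereas all 4 positive-control animals lie between -0.92 and -0.47 for Slc10a1 and between 0.71 and 1.76 for Abcc3.

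The prodrugs adefovir dipivoxil and tenofovir disoproxil are the only related compounds of the series and form the 1 pair compared. Their parent drugs differ by a methyl group on the acyclic side chain, which tenofovir carries, and the prodrugs differ also in the ester groups. Both were given at 25 mg/kg for the same days, a match by weight. None of the 8 transporters differed between them in limma's test, as was the case for 0 of 120 probes (0%), with 1 of 8 and 3 of 120 at an unadjusted p under 0.05. Abcb11 showed the widest gap among the transporters, adefovir minus tenofovir being -0.30 on the log2 scale (95% interval -0.57 to -0.02, adjusted p = 0.983 in limma). Animals of the 2 drugs overlapped for Abcb11, since tenofovir animals 4 and 5 fell among the adefovir values.

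For the other exporters to bile the differences were 0.12 for Abcb4 (-0.18 to 0.42), -0.04 for Abcc2 (-0.33 to 0.26), -0.18 for Abcb1a (-0.47 to 0.10) and -0.11 for Abcb1b (-0.32 to 0.09). On the sinusoidal side they were 0.03 for Slc10a1 (-0.15 to 0.22), -0.03 for Slco1a1 (-0.29 to 0.23) and 0.01 for Abcc3 (-0.32 to 0.34). Differences as large as these bounds fit the data, and a p that misses the threshold does not show that the drugs act alike.

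The positive control asked how inducers of drug metabolism move the same transporters. With normexp and within-array loess, the bile acid importer Slc10a1 was lower and the blood-side exporter Abcc3 higher in all 4 animals. Saline was above background on 1 of the 4 arrays for Slc10a1 and on 0 for Abcc3. The Slc10a1 call was lost with array median centring (-0.26, limma adjusted p = 0.125). With loess 0 of the 5 canalicular exporters passed limma's test. Other scalings raised that count to between 1 and 4, while calling 41 to 98 of 120 probes. Slco1a1 was also called lower, but it was below background in both channels of all 4 arrays. In all 3 of 8 transporters were called, against 41.7% of all probes (21.7% higher and 20% lower), so the share is close to that of the array as a whole. The median log2 ratio of the 8 was -0.11, beside 0.00 over all probes.

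The inducible P450 genes give a check of the treatment. Of 9 listed targets 6 were on the array and all 6 were higher in limma's test, against 21.7% of all probes. Their median log2 ratio was 1.33, with Cyp1a2 at 2.31, Cyp1a1 at 2.15, Cyp2b10 at 1.61, Cyp2b13 at 1.05, Cyp3a13 at 0.86 and Cyp3a25 at 0.51. Cyp1a1 was below background in saline on all 24 animal arrays, and Cyp2b10 on the 4 of the positive control. Under adefovir 1 of the 6 was called, Cyp1a2 lower at -0.59 (limma adjusted p = 0.0203), and under tenofovir 0 of 6. With tenofovir 0 of the 6 had an unadjusted limma p under 0.05, beside 20 of 120 probes. With centring on Actb, Gapdh and Ppia, Cyp3a25 was not called (0.29, limma adjusted p = 0.0774), while the other 5 were called under every scaling tried.

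Slc10a1 had log2 ratios of -0.79, -0.61, -0.47 and -0.92 in positive-control animals 1 to 4. All 4 lay below every antiviral animal, whose lowest value was -0.26. The mean of -0.70 (SD 0.200, n = 4, 95% interval -0.84 to -0.55) had a limma adjusted p of 1.30e-06 and ranked 16 of 120 probes by size. Saline was above background for Slc10a1 on only 1 of these 4 arrays. The pool arrays had Slc10a1 above background in both channels on 4 of 4, with log2 ratios of -0.51 and -0.63 with the pool in Cy5 and -0.78 and -0.82 with it in Cy3. All 4 pool arrays were below 0, and their orientation-balanced mean of -0.68 corresponds to a 1.61-fold lower level, from 1 RNA and with no test.

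The size of the Slc10a1 change on single-animal arrays depended on the intensity-dependent loess step. With each array centred on its median instead, the mean was -0.26 with a limma adjusted p of 0.125, so that the call was lost. Centring on added calibration RNAs, on luciferase RNA or on Actb, Gapdh and Ppia moved the median of all 120 probes to -0.59, -0.57 and -0.74, and Slc10a1 was called lower under all 3, at -0.76, -0.74 and -0.91. Relative to the shifted median it stood at -0.17 under each of them and with median centring. That value is the same by construction, because each of these centrings subtracts 1 constant per array. On the pool arrays the same scalings put Slc10a1 at -1.01 relative to the median, further below 0 than loess did. Other brightly measured genes moved with it, since Cyp2e1 went from -1.45 with loess to -0.28 with median centring and Scp2 from -0.80 to 0.16. The part of the saline channel marked as bad in this was not tested.

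**Figure D3:**
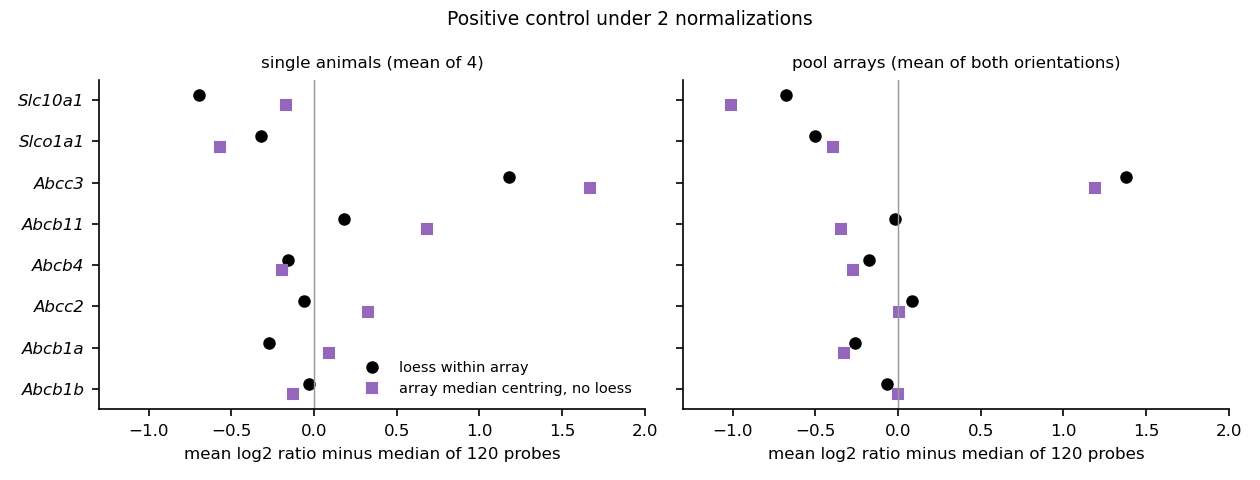
Mean log2 ratio of each transporter in the positive control minus the median of all 120 probes, on single-animal arrays (left) and pool arrays (right), with within-array loess (circles) and with array median centring (squares). Slc10a1 shifts from -0.70 to -0.17 on single-animal arrays and from -0.68 to -1.01 on pool arrays, while Abcc3 lies at 1.18 or above in each of the 4 settings.

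Abcc3 had log2 ratios of 1.22, 0.71, 1.76 and 1.05 in positive-control animals 1 to 4. All 4 lay above every antiviral animal, the highest of which was at 0.25. The saline channel was not well above background for Abcc3 on any of these 4 arrays, so the ratio has only a bound, which is under 1, and no fold is given from them. With that limit, the measured mean was 1.18 (SD 0.437, n = 4), with a limma adjusted p of 1.53e-06. The treated channel was above background on 4 of 4, at 819 to 2520 units. On the pool arrays the log2 ratios were 0.95 and 1.52 with the pool in Cy5 and 1.68 and 1.34 with it in Cy3. Those 4 values overlap the range of the single animals. Saline was above background on 2 of the 4 pool arrays, those with 1.68 and 1.52. The call held under each of the 16 alternatives of processing that gave Abcc3 a value (0.93 to 1.58) and with each animal left out (0.99 to 1.34).

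Slco1a1 had log2 ratios of -0.53, -0.06, -0.45 and -0.25 in positive-control animals 1 to 4, all below 0. Animals 2 and 4 lay within the range of the antiviral animals, whose lowest was -0.27, and animals 1 and 3 below it. The mean of -0.32 (95% interval -0.53 to -0.12) had a limma adjusted p of 0.0155. No fold is given, because neither channel rose above background on any single-animal or pool array. The call was lost without positive-control animal 1 (adjusted p = 0.0824 in limma) and without animal 3 (0.0670), when the group was fitted alone (0.0632), under array weights (0.0632) and when the animal was a random block (0.0775). Subtracting local background moved the mean to -2.82.

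On the canalicular side, positive-control means with loess were 0.18 for Abcb11, -0.16 for Abcb4, -0.06 for Abcc2, -0.27 for Abcb1a and -0.03 for Abcb1b. Of these 5, 0 were called and 1 had an unadjusted limma p under 0.05, beside 57 of 120 probes. All 5 intervals lay within 0.5 of 0, but their width rests on 1 variance per probe, fitted over all 14 animals. The SD among positive-control animals was 0.33 for Abcb1a, 0.32 for Abcc2 and 0.28 for Abcb4, beside 0.17, 0.19 and 0.22 among antiviral animals. For Abcb11 and Abcb1b it was lower, at 0.16 and 0.07 beside 0.23 and 0.17. The intervals of Abcb1a, Abcc2 and Abcb4 may thus be too narrow and cannot show that a change was small. Abcb11 had log2 ratios of 0.07, 0.41, 0.07 and 0.17 in animals 1 to 4, each above 0 and inside the range of the tenofovir animals. With array median centring Abcb11 was called higher (0.60, limma adjusted p = 0.000280), while the pool arrays, with Abcb11 above background in both channels on 4 of 4, gave -0.02 with loess and -0.35 relative to the median with median centring. The direction of Abcb11 in the positive control was therefore not the same between arrays and scalings. Centring on calibration or luciferase RNA called Abcb4, Abcb1a and Abcb1b lower, and centring on Actb, Gapdh and Ppia also Abcc2, in the positive control whose all-probe median these scalings lower. Without background correction Abcb4 (-0.29, limma adjusted p = 0.0183) and Abcb1a (-0.35, adjusted p = 0.0105) were called lower with loess.

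Abcb1a had log2 ratios of -0.24, -0.07, -0.75 and -0.02 in animals 1 to 4, and animal 3 stood below the others. The 3 spots behind the value of animal 3 had an SD of 1.18, beside 0.13 to 0.45 on the other arrays. Its mean missed the threshold (limma adjusted p = 0.0523), passed without positive-control animal 2 (0.0336) or 4 (0.0328), adefovir animal 1 (0.0471) or tenofovir animal 1 (0.0483), and moved to -0.11 without animal 3. It was called lower in 7 of the 16 processing alternatives. Pool arrays gave -0.54 and -0.54 with the pool in Cy3 and -0.00 and 0.03 with it in Cy5, so they split by dye. Abcb1a was above background on 1 of the 4 pool arrays in each channel, and in neither channel with the pool in Cy5. Abcb4 ranged from -0.39 to 0.20 and Abcc2 from -0.46 to 0.22, on both sides of saline, and Abcb1b from -0.10 to 0.06. For Abcb4, Abcc2, Abcb1a and Abcb1b saline did not exceed background on any of the 4 animals' arrays, and no fold is given. Abcb1a, Abcb1b and Abcb4 are close relatives on chromosome 5, and Abcb4 is also an older name of Abcb1a. Whether their probes share signal was not tested, and their separate values are uncertain.

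Whether the inducers differed from the antivirals was tested directly, as the positive-control mean minus the average of both antiviral means. Slc10a1 was lower by a difference of -0.55 (95% interval -0.72 to -0.38, limma adjusted p = 7.19e-05). Abcc3 was higher by 1.11 (0.80 to 1.42, adjusted p = 2.60e-05 in limma), with its saline channel below background in the positive control. Slco1a1 differed by -0.31 (-0.55 to -0.07, adjusted p = 0.0421 in limma), below background in the positive control. This call was lost with 8 of the 14 animals when left out in turn and in 5 of 15 processing alternatives, with limma adjusted p of up to 0.161 and 0.167. These are 3 of 8 transporters, against 36.7% of all probes. Of the 5 canalicular exporters 0 passed limma's test with normexp and loess. Other scalings called 3 or 4 of them, while calling 50 to 94 of 120 probes. With loess 1 of the 5 had an unadjusted limma p under 0.05, beside 56 of 120 probes. It was Abcb11, at 0.26 (0.01 to 0.52, limma adjusted p = 0.0938). The others were Abcb4 at -0.27, Abcc2 at -0.19, Abcb1a at -0.15 and Abcb1b at -0.10.

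The difference in Slc10a1 also rested on loess. With array median centring it was -0.03 (limma adjusted p = 0.868), and 0.10 relative to the median of all probes. A comparison that leaves the saline channel out, with the treated Cy3 channel alone in all 14 animals, was added after the data were seen. Its intensities were brought to the same distribution on every array (quantile normalization), which is also an intensity-dependent step. The treated channel without such a step was not tested. In it Slc10a1 averaged 10.37 in the positive control and 11.02 in the antiviral animals on the log2 intensity scale, a difference of -0.64 (limma adjusted p = 0.00184). Abcc3 averaged 10.32 and 9.11, a difference of 1.22 (limma adjusted p = 4.99e-06). Abcb11 averaged 10.71 and 10.74. In the same comparison Abcb4 was called lower, by a difference of -0.42 (limma adjusted p = 0.0287), and Slco1a1 was not called (-0.43, limma adjusted p = 0.0553).

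**Figure D4:**
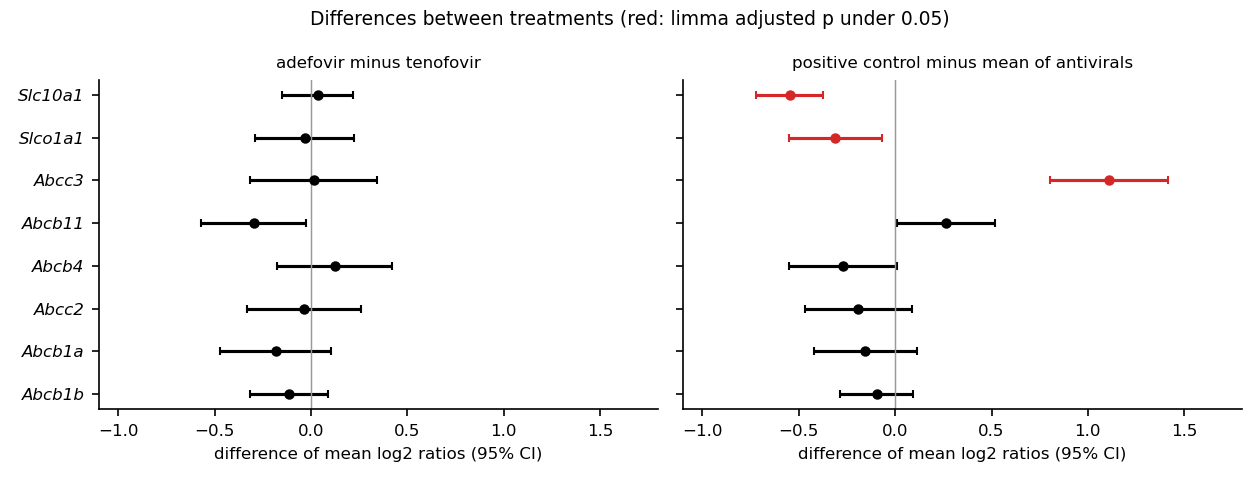
Difference of mean log2 ratios with 95% intervals from limma for each transporter, adefovir minus tenofovir on the left and positive control minus the mean of both antivirals on the right; red marks an adjusted p under 0.05 with within-array loess. Adefovir and tenofovir differ by -0.30 to 0.12, and the positive control differs for Slc10a1 (-0.55), Slco1a1 (-0.31) and Abcc3 (1.11). With array median centring Slc10a1 is at -0.03 and Abcb11, Abcb4 and Abcb1b are called.

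Variation between animals was set against the technical spread of the dye exchanges. Over the 10 antiviral animals, Abcb11 varied with an SD of 0.230 around its group means, beside a technical SD of 0.135 for an animal's value. For Abcc3 the figures were 0.155 and 0.0938, and for Abcc2 0.194 and 0.0889. Slc10a1 varied by 0.0903 between animals and by 0.0887 between its own dye exchanges, and for Abcb1a the technical SD of 0.203 was above the spread between animals of 0.172. Over all probes the median technical SD was 0.110 and the median spread between animals 0.139.

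Across the same 10 animals, with group means removed, the genes most like each measured transporter were found by Pearson's r, as a description over points that share a saline pool. Abcb11 ran closest to Actb, the cytoskeletal actin (r = 0.91), and to Cyp4b1 (0.85). Abcc2 was nearest Ppargc1a, a coactivator of energy metabolism (0.88), and Cyp2b10 (0.80). Abcc3 also had Ppargc1a first (0.81), followed by Apob, the protein of very low density lipoprotein (0.73). Abcb1a was closest to the nuclear receptor Nr5a2 (0.80), Abcb4 to the lysosomal lipase Lipa (0.68), and Slc10a1 to Cyp27a1 at only 0.42. Each of these r was picked as the highest of many probes over 10 animals. Whether they exceed the highest r among unrelated probes was not tested. Among the transporters themselves the highest values were 0.90 for Abcb4 with Abcb1b, of which the latter is mostly below background, and 0.70 for Abcc3 with Abcc2.

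Other genes of bile acid and sterol transport were sparsely covered, with 5 of 17 listed transporters on the array. Under either antiviral 0 of 5 were called by limma. An unadjusted limma p under 0.05 was found for 0 with adefovir and 1 with tenofovir, beside 15 and 20 of 120 probes. The largest was Abcg8, a subunit of the canalicular sterol exporter, at 0.15 with adefovir and 0.23 with tenofovir. In the positive control 1 was higher and 1 lower of the 5, against 21.7% higher and 20% lower over all probes, so the share is close to that of the array. Slc10a2, the bile acid importer of ileum and bile ducts, had 0.44 (limma adjusted p = 0.000247) but its saline channel never rose above background, and it was not called when arrays were centred on calibration, luciferase or reference genes. Abcg8 had -0.38 (limma adjusted p = 0.00265) and was called lower under every scaling tried, but on the 4 positive-control arrays it was above background on 0 in saline and on 2 in the treated channel.

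Of 14 listed regulators 8 were on the array, and with loess limma called 0 of 8 in each of the 3 comparisons with saline. In each, 1 had an unadjusted limma p under 0.05, beside 15, 20 and 57 of 120 probes for adefovir, tenofovir and positive control. Over all probes limma called 1.67% for each antiviral and 41.7% in the positive control. Saline did not exceed background for any of the 8 on the single-animal positive-control arrays. With array median centring limma called Ppara lower there (-0.52, adjusted p = 0.00632) and Nr5a2 higher (0.36, adjusted p = 0.0179). Centring on calibration RNA, luciferase RNA or reference genes, which lowered the all-probe median, called every regulator but Nr5a2 lower. The next receptors were named for their role after their values were seen. Nr1h4, the bile acid receptor FXR, had 0.07 with adefovir, 0.11 with tenofovir and -0.17 in the positive control, and Nr1i3, the drug sensor CAR, had 0.15, 0.12 and -0.04. Ppara, a fatty acid receptor, was the 1 regulator called between the positive control and the antivirals, at -0.43 (limma adjusted p = 0.0384), against 36.7% of all probes. On the 4 single-animal positive-control arrays Ppara was above background on 0 in saline and on 2 in the treated channel.

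Bile acid synthesis had 7 of 13 listed genes on the array and 0 of 7 called under either antiviral by limma. Unadjusted, 2 had a limma p under 0.05 for adefovir and 1 for tenofovir, beside 15 and 20 of 120 probes. In the positive control 2 were higher, the sterol 12α-hydroxylase Cyp8b1 at 0.70 (limma adjusted p = 0.0181) and the oxysterol 7α-hydroxylase Cyp39a1 at 0.76 (adjusted p = 3.49e-05). Lower were Cyp7a1, the rate-limiting enzyme, at -0.21, Cyp46a1 at -0.15 and the sterol carrier Scp2 at -0.80, with limma adjusted p of 0.0292, 0.0225 and 1.53e-06. Over all probes 21.7% were called higher and 20% lower. With array median centring Cyp8b1 and Cyp39a1 were still called higher (0.98 and 1.15), whereas none of the 3 lower genes was called and Scp2 turned to 0.16. Cyp8b1 was not called with Actb, Gapdh and Ppia centring (0.33, limma adjusted p = 0.205). Cyp46a1 was below background on all 24 arrays of the animals, and saline did not exceed background on the 4 positive-control arrays for Cyp7a1, Cyp8b1 or Cyp39a1, so their sizes there are measured against background.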

How the data were processed

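Liver RNA was labelled with Cy3 or Cy5 and hybridised beside saline reference RNA, per the labels' protocols. The deposited scanner files hold a median intensity and a local background per spot and channel, not normalized, per the file headers. The authors also deposited a series table of log2 ratios, used as an alternative: its direction and scale matched the scanner values (r of 0.677 to 0.965 across probes), its centring is unknown (column medians -1.54 to 0.936), and 53.3% of its gene probe values are missing. Its normalization method is unknown.

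Groups came from sample titles. A spot was above background when it exceeded the local background by 2 background SDs, a probe when most of its 3 spots did. Intensities were corrected with normexp (offset 50) and normalized by within-array loess (span 0.3, gene spots only) in limma 3.58.1 under R 4.3.3, spots were averaged, and ratios turned to treated over saline. Both arrays of each antiviral animal were averaged. The mean dye effect of each probe, from those exchanges, was removed from the single-orientation positive-control arrays. One limma model over 14 animals (11 residual degrees of freedom) was tested with Benjamini-Hochberg adjustment at 0.05 over 120 probes. For each probe it fits 1 variance to every group, although positive-control values rest on 1 array and antiviral values on 2. Where positive-control animals spread more, as for Abcc3 (SD 0.437, beside 0.155 among antiviral animals), their intervals may be too narrow. Tests against saline compare a mean log2 ratio with 0 and leave out the spread among saline animals. The number of arrays limits precision. At most 6 gene spots per array were saturated and were kept.

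On simulated data for the positive-control comparison (120 genes) the model recovered 89.4% of log2 changes of 0.5 and 98.8% of those of 1, with 5.73% of calls false. The simulated noise was normal, independent between probes and of equal spread in all groups. It held no dye correction and no channel below background, so these rates may not carry over to the measured positive-control arrays. The transporters and gene lists were chosen with earlier results of these data known. All 8 transporters are named in every comparison. From 4 lists of other genes those past the threshold or else the 2 largest are named, and for likeness the 2 probes with the highest r. Nr1h4, Nr1i3, Nr5a2, Apoa1 and Cyp2e1 were added after their values were seen. Promoter windows come from RefSeq (GRCm38.p6), which no deposited file is tied to. Alternatives numbered 32 (14 leave out an animal; others change background, normalization, dim probes, dyes, weights or blocks), of which 1 was added after seeing the data. Figures used Python 3.11.15 and matplotlib 3.10.9.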

Additional observations from a re-analysis of the deposited data

Results flagged for a closer look

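Among 24 sets of animals tested for a lone value (8 transporters in 3 treatments), 2 held an animal far from the rest of its group. Abcc3 in tenofovir animal 2 was at -0.15, below the other 4 animals. Abcb1b in tenofovir animal 3 was at 0.40, above the other 4, with its saline channel below background. Chance gives about 1 such set in 20.

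Responses to the inducers and to the antivirals differed by a direct test for 3 transporters. The positive control minus the antivirals was -0.55 for Slc10a1, -0.31 for Slco1a1 and 1.11 for Abcc3, with limma adjusted p of 7.19e-05, 0.0421 and 2.60e-05. The Slc10a1 difference was -0.03 with array median centring, and Abcc3 saline was below background on all 4 positive-control arrays. Slco1a1 was below background in both channels there, and its call was lost with 8 of the 14 animals when left out in turn and in 5 of 15 processing alternatives.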

How the results depend on the processing

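For adefovir against saline and adefovir against tenofovir, limma called 0 under every alternative. Tenofovir against saline had 1 of 8 with luciferase centring (Abcb1b), with treated RNA in Cy3 alone (Abcc2), with the animal as a random block (Slc10a1) and in the authors' series table (Abcb4). The positive control against saline had 5 without background correction, 6 with calibration centring, 6 with luciferase centring and 7 with Actb, Gapdh and Ppia centring, and 1 in the series table, where only Slc10a1 and Abcb11 had at least 2 positive-control animals. Against both antivirals the counts were 5 with array median centring, 7 with calibration, 7 with luciferase and 7 with Actb, Gapdh and Ppia centring, and 1 in the series table. The 3 centrings on spots or reference genes lower the all-probe median of the positive control (26 higher and 24 lower calls became 16 and 75, 18 and 80, and 13 and 85), and median centring gave 31 and 10. Calls against both antivirals, 24 higher and 20 lower, became 34 and 16 with median centring, 11 and 80 with calibration, 14 and 80 with luciferase and 14 and 80 with reference genes. Calibration and luciferase centring moved the all-probe median to 0.15 and 0.13 for adefovir, and to 0.37 and 0.31 for tenofovir, where reference genes gave 0.12. Over all probes, with no animal left out, calls for adefovir ranged from 0 (series table) to 17 (treated RNA in Cy5 alone) and for tenofovir from 2 to 29 (treated RNA in Cy3 alone), beside 2 each, and the positive control had 30 with array weights and 17 of 39 in the series table, beside 50. Leaving out each animal gave 0 transporters for each antiviral and between them, and 2 to 4 for the positive control against saline and against both antivirals. Same-numbered animals did not deviate together (r of -0.44 to 0.37), so the numbers share no known pairing. With the replicate block, 0 of 8 were called for adefovir, 0 for tenofovir and 3 for the positive control. Over single transporters, 1125 of 1188 values kept their side of the threshold, 20 lost and 43 gained a call, and 0 reversed sign with a call. These counts include the 14 alternatives that leave out an animal and comparisons with 0 calls. Sign changes without a call were not counted, such as Abcb4 in adefovir minus tenofovir, negative in 5 of 16 alternatives. Fewer probes were tested in the series table; otherwise the cause was not tested.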
